A study of Mus musculus with 2 samples.

Results

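The microRNA genes of 4 imprinted loci outside the Dlk1-Dio3 region were followed in mouse cortex: Mir296 and Mir298 beside Nespas and Gnas, Mir335 in Mest, Mir483 in Igf2 and Mir675 in H19. They were chosen by name, from their place at a known imprinted locus, though with earlier results of these data known. All 5 were found among the 2202 listed microRNA genes. The mice were females of the strain B6CASTF1/J at 10 days of age, and the tissue was the cerebral cortex of the left side. B6CASTF1/J is a first-generation hybrid of C57BL/6J and CAST/EiJ, and the labels name no treatment. There was 1 group of 2 biological replicates, called animal 1 and animal 2 after their replicate numbers. The labels give both the same donor entry but number the females differently, so each replicate was treated as its own animal. The p-values compare the reads of these 2 libraries and cover counting error only. They leave out any other variation between libraries or animals, so a difference that passes may be technical.

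An imprinted gene is expressed mainly from the chromosome inherited from 1 parent. At these loci the paternal chromosome is in general the active one for Mest and Igf2 and for the microRNAs of the Gnas cluster, and the maternal one for H19. Whether this holds for each of them in the cortex was not examined. Igf2 encodes a growth factor of the fetus, H19 a long noncoding RNA, Mest a hydrolase-like protein, and Gnas the stimulatory G protein subunit. A microRNA is cut from a hairpin transcript, and bases 2 to 8 of the mature strand, the seed, choose most of the messenger RNAs it represses. The deposited tables hold a single count per gene, so maternal and paternal alleles were not separated and imprinting itself was not measured.

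The mature sequences are shown because the seed decides which messages each gene can act on. They were taken from RefSeq (GRCm38.p6, the C57BL/6J genome) and run 5′ to 3′, with the seed in capitals.
miR-296-5p: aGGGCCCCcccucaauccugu
miR-296-3p: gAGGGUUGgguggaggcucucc
miR-298-5p: gGCAGAGGagggcuguucuuccc
miR-298-3p: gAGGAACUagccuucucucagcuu
miR-335-5p: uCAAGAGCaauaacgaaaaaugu
miR-335-3p: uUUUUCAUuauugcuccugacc
miR-483-5p: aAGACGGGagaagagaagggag
miR-483-3p: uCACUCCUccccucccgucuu
miR-675-5p: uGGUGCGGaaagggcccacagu
miR-675-3p: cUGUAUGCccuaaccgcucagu
The 10 seeds all differed, also between Mir296 and Mir298, which lie side by side. None of the 10 was the seed of another gene in the RefSeq table, in which 216 of 1398 seeds belonged to more than 1 gene. Each mature sequence was present in no other RefSeq hairpin, and among GENCODE transcripts only in its own hairpin and, for Mir675, in H19. Other copies in the genome were not searched for, and bases that differ in CAST/EiJ were not examined.

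The hairpins of the highest and the lowest member are printed for their arms, with the mature strands in capitals.
Mir298: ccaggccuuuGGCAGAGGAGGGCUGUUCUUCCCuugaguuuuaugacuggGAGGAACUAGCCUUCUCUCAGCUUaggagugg
Mir675: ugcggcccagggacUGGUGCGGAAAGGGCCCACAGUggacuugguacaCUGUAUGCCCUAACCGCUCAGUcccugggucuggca
The counts are per hairpin gene, so reads of the 5p and the 3p arm were summed and could not be compared. The predicted folding energy of the Mir675 hairpin was -56.0 kcal/mol over 84 bases, or -0.67 per base, and that of Mir298 was -42.7 over 82 bases, or -0.52 per base. Mir296 came to -0.55 per base, Mir483 to -0.46 and Mir335 to -0.45, where the median of 265 detected genes with a RefSeq hairpin was -0.44. The least expressed member thus had the lowest predicted energy per base of the 5, but the most expressed, Mir296 and Mir298, came next. Energy per base did not follow level among the 5, and Mir675 itself was not among the detected genes. GC content ran over 63.3% in Mir296, 63.1% in Mir675, 58.9% in Mir483, 53.7% in Mir298 and 42.9% in Mir335, against a median of 51.2% in the detected genes.

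In the genome (mm10, GENCODE M21), Mir296 lay at chr2:174267047-174267125 and Mir298 at chr2:174267504-174267585, both on the minus strand and 378 bases apart. The annotation placed them between genes: the nearest, Nespas on the same strand, ended 13651 bases from Mir298, and Gnas on the opposite strand began 16734 bases from it. Mir335 lay at chr6:30741299-30741396 on the plus strand, in an intron of 7 of the 11 Mest transcripts and in no exon. Mir483 lay at chr7:142654924-142654996 on the minus strand, in an intron of 7 of the 9 Igf2 transcripts and of Gm49394, a gene annotated across Igf2. Mir675 lay at chr7:142577064-142577147 on the minus strand, 77776 bases from Mir483, inside an exon of 3 of the 7 H19 transcripts. Mir675 was thus the one member annotated within an exon.

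**Figure D1:**
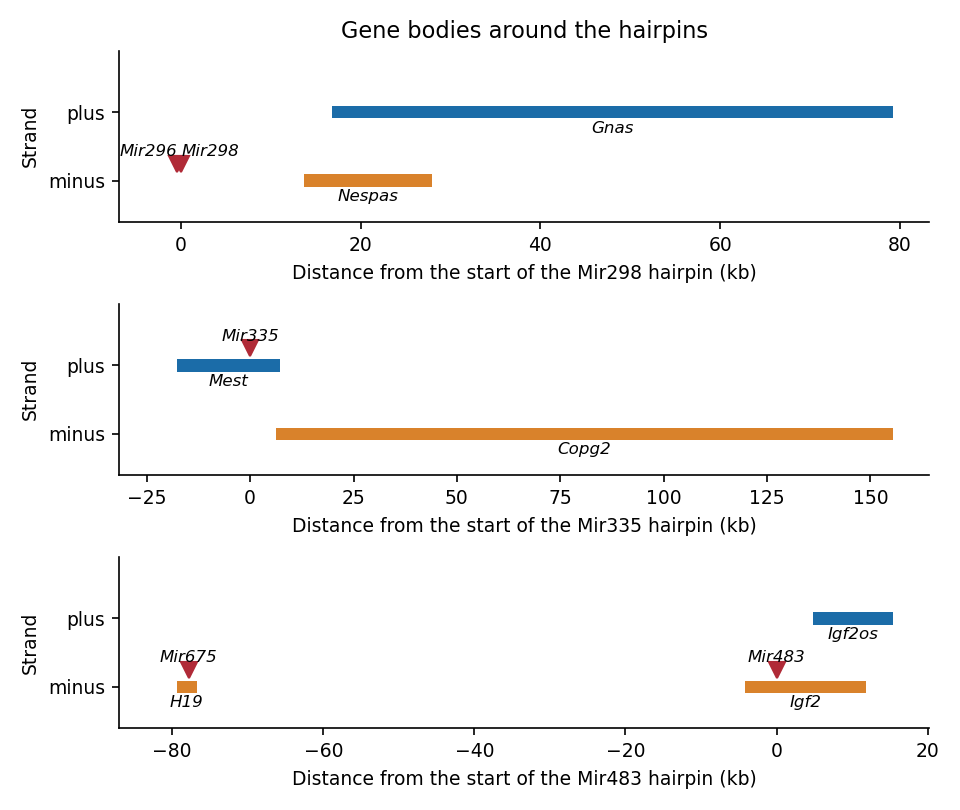
Gene bodies around the hairpins, with the distance from a hairpin's start in kb along the chromosome on the x axis and the strand on the y axis; bars are annotated genes and triangles the microRNA hairpins. Mir296 and Mir298 sit to the side of Nespas and Gnas, Mir335 sits within Mest, and Mir483 and Mir675 sit within Igf2 and H19.

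By counted reads, the 5 genes covered a wide range of levels, from among the higher ranks of the listed genes to the limit of detection. Reads that map to several positions, 42.7% of all reads in animal 1 and 40.4% in animal 2, were not counted to genes. MicroRNAs with several near-identical gene copies, such as Mir124a, can thus be undercounted, and ranks against them do not give true abundance. The libraries held 3806078 reads on microRNA genes in animal 1 and 2602935 in animal 2, and levels are given as CPM, the number of reads scaled to a common library size by these totals. A read stands for a whole microRNA of about the same length in each gene, so CPM was not divided by length. Together the 5 genes held 2.34% of counted reads in animal 1, with an exact Clopper-Pearson 95% interval from 2.32 to 2.35. In animal 2 they held 1.96%, with an interval from 1.95 to 1.98. The mean share was 2.15% ± 0.265 (SD, n = 2). Intervals cover counting error only, and an SD of 2 animals rests on a single difference. In such bulk tissue, fewer cells of a type and less RNA per cell cannot be told apart.

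Mir298, known in mouse for repressing the beta-secretase Bace1, was the highest of the 5. It had 52659 reads in animal 1 and 29908 in animal 2. Its level was 13836 CPM (95% interval 13718 to 13953) in animal 1, against 11490.1 CPM (11361 to 11620.3) in animal 2. It ranked at 21 and 18 among all 2202 genes in animals 1 and 2, and it alone held 59.1% and 58.5% of the reads of the 5 genes in animals 1 and 2.

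Mir296, its neighbour, described in human endothelium as a microRNA of vessel growth, followed. It had 23828 reads in animal 1 and 11907 in animal 2, or 6261 CPM (95% interval 6182 to 6340.3) and 4574 CPM (4493 to 4657) in animals 1 and 2. It stood below Mir298 in both animals: Mir298 had 2.21 times as many reads in animal 1 and 2.51 times as many in animal 2. Of the reads of this pair, Mir296 took 31.2% in animal 1 (95% interval 30.8 to 31.5), against 28.5% in animal 2 (28.0 to 28.9). These shares do not depend on library scaling, and their counting intervals did not overlap. Such intervals cover counting error only, and 51.6% of 531 tested genes differed between these libraries by a test of that error.

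Mir335, known in human breast cancer as a suppressor of metastasis, came next. It had 11323 reads in animal 1 and 8793 in animal 2, or 2975 CPM (95% interval 2921 to 3030.2) and 3378 CPM (3308 to 3449). It was the only one of the 4 well-covered members with the higher CPM in animal 2. Its ratio to its partners moved with that: Mir298 had 4.65 times the reads of Mir335 in animal 1 and 3.40 times in animal 2.

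Mir483, hosted by Igf2 and known in human from Wilms tumours, was far lower. It had 1230 reads in animal 1 and 512 in animal 2, or 323 CPM (95% interval 305 to 342) and 197 CPM (180.03 to 214) in animals 1 and 2. Mir335 exceeded it 9.21-fold in animal 1 and 17.2-fold in animal 2.

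Mir675, released from H19 and known in mouse to restrain growth of the placenta, was near the floor. It had 3 reads in animal 1 and 4 in animal 2, which is 0.788 CPM (95% interval 0.163 to 2.30) and 1.54 CPM (0.419 to 3.93) in animals 1 and 2. A count of 0 would allow up to 3 reads, which is 0.788 CPM of animal 1 and 1.15 CPM of animal 2, so the level of Mir675 was at that limit in animal 1 and little above it in animal 2. Mir483, its neighbour on chromosome 7, had 410 times its reads in animal 1 (95% interval of the ratio 139.97 to 1991), against 128 times in animal 2 (49.7 to 472). The H19 host transcript itself was not measured by these short-RNA libraries.

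The order Mir298, Mir296, Mir335, Mir483, Mir675 was the same in both animals. Between each pair of neighbours in that order the ranges of the 2 animals did not overlap. As means the levels were 12663 CPM ± 1658, 5417 ± 1192, 3177 ± 285, 259.9 ± 89.4 and 1.16 ± 0.529 in that order (SD, n = 2). In CPM by library totals, the SD relative to the mean was 13.1% for Mir298, 22.0% for Mir296, 8.97% for Mir335, 34.4% for Mir483 and 45.5% for Mir675. Which gene differed least depended on the scaling: by library totals it was Mir335, and after the TMM scaling used below it was Mir298, at 1.05-fold against 1.31-fold for Mir335. Dividing by the annotated hairpin length left the order as it was, with 169, 79.2, 30.4, 4.43 and 0.00938 CPM per base in animal 1 and 140.1, 57.9, 34.5, 2.69 and 0.0183 in animal 2.

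**Figure D2:**
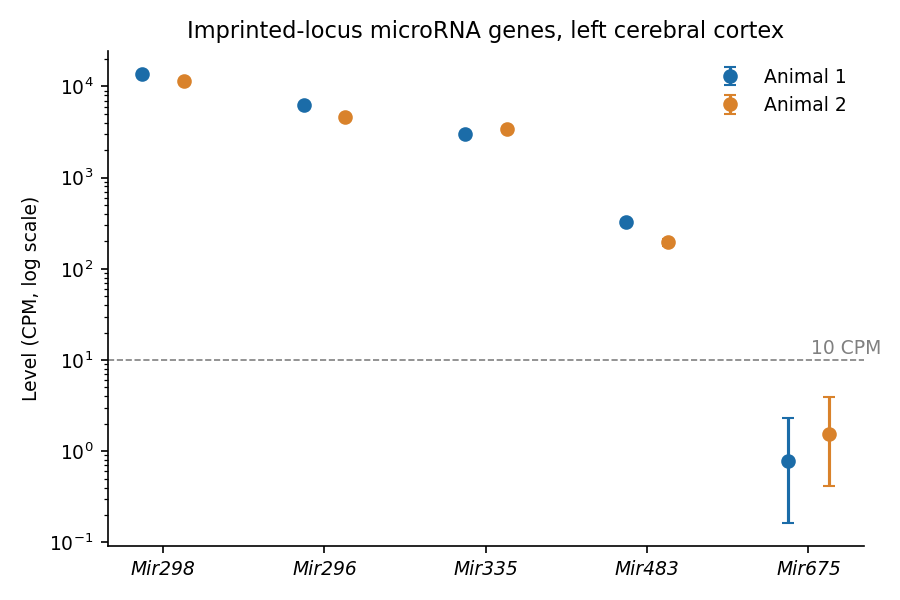
Level of each gene in CPM on a log axis, animal 1 in blue and animal 2 in orange, with exact 95% counting intervals (smaller than the points for the 4 higher genes). Levels fall from 13836 CPM for Mir298 in animal 1 to 0.788 CPM for Mir675, which alone is under the dashed line at 10 CPM.

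Of the 5 genes, 4 were detected at 10 CPM or more in both animals, a threshold of 38.1 reads in animal 1 and 26.0 in animal 2, against 307 of all 2202 genes or 13.9%. By mean CPM, Mir298 ranked 20, Mir296 37, Mir335 57, Mir483 170 and Mir675 557 among all genes, of which 770 had a read. These ranks leave out reads that map to several positions, so multi-copy microRNAs can rank too low. The Dlk1-Dio3 microRNA genes, the large imprinted group of chromosome 12, were set beside them as the most alike. Of 67 genes annotated between Dlk1 and Dio3, 51 were detected, or 76.1%, and their median level was 350 CPM in animal 1 and 264 CPM in animal 2. The median of the 5 genes was that of Mir335, 2975 and 3378 CPM in animals 1 and 2. Mir298 was lower than 5 of the 67, Mir296 than 8, Mir335 than 13, Mir483 than 36 and Mir675 than 54. As a group the Dlk1-Dio3 genes held more, 22.1% of counted reads in animal 1 and 22.3% in animal 2, led by Mir127 (44399 CPM ± 1195), Mir770 (39345 ± 3667) and Mir487b (37709 ± 5103). No test was made of this difference, because the 5 genes were picked by name and number only 5.

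Imprinted microRNA genes of Sfmbt2 and of the Rasgrf1 region were lower than Mir335. Of 119 listed genes inside Sfmbt2, which is imprinted in rodents, 6 were detected, or 5.04%. Its highest were Mir467d at 853 CPM ± 171, Mir669c at 368 ± 9.03 and Mir467e at 290.5 ± 4.30, and many of these genes are near-identical copies, so their counts are uncertain. Mir184, near the imprinted gene Rasgrf1, stood at 57.5 CPM in animal 1 and 40.7 CPM in animal 2, below Mir483.

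**Figure D3:**
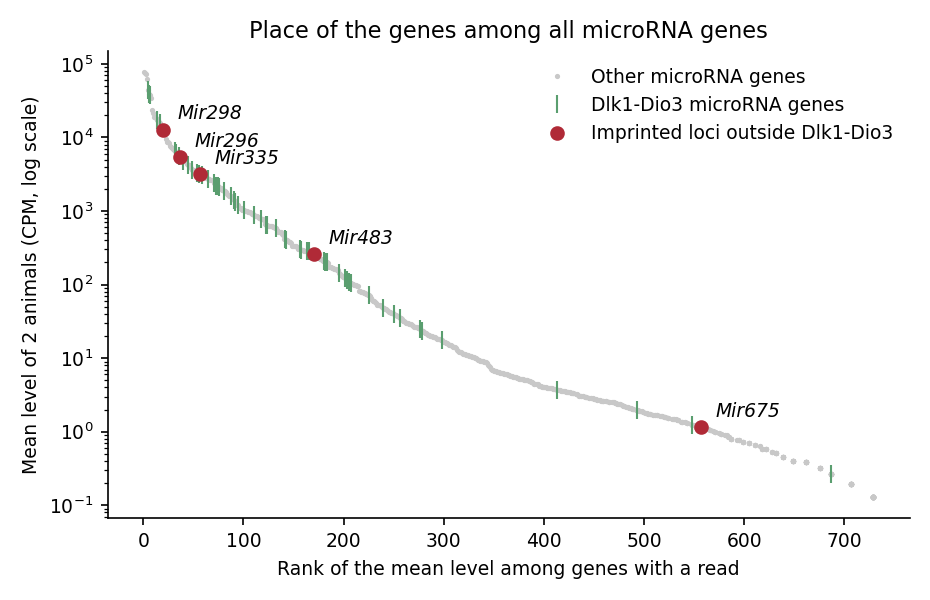
Mean level of 2 animals in CPM (log axis) against rank for the 770 genes with a read, with the 5 imprinted-locus genes as red points and Dlk1-Dio3 genes as green bars. Mir298, Mir296 and Mir335 lie among the first 57 ranks, Mir483 at rank 170 and Mir675 at rank 557.

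The neighbourhoods of the genes held few other microRNA genes. Within 500 kb, Mir296 and Mir298 had beside each other only Gm27591, 19051 bases from Mir296 and on the opposite strand, with no read in either animal, which allows up to the same limits as above. Near Mir335, on the opposite strand, lay Mir29a at a distance of 321263 bases and Mir29b-1 at 321626, members of the mir-29 family that rises as the brain matures. Mir29a had 1337 CPM in animal 1 and 840.2 CPM in animal 2, lower than Mir335 in both, and its difference between the animals ran the other way. Mir29b-1 had 28.1 CPM in animal 1 and 23.1 CPM in animal 2. The reads all lay on the strand of the hairpin: on the opposite strand each of the 5 genes had 0 reads in both animals, as did 287 of the 307 detected genes.

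Animal 1 was then compared with animal 2. Ratios were taken after TMM scaling, with 0.5 added to each count, and genes were tested by an exact two-sided binomial test of their counts with Benjamini-Hochberg adjustment over 531 genes that had at least 10 reads in all. This test sets 2 libraries against each other and no conditions. All 4 members tested passed the threshold of 0.05, 3 higher in animal 1 and 1 in animal 2, but so did 51.6% of the 531 genes, 26.9% higher in animal 1 and 24.7% higher in animal 2. Mir675, with 7 reads in all, was not tested. At these depths even small ratios pass, so their sizes say more than the calls.

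Mir483 had the largest ratio, 0.51 on the log2 scale (95% interval 0.36 to 0.66), 1.43-fold higher in animal 1 (exact binomial test, adjusted p = 1.9e-11). Mir296 was 1.19-fold higher in animal 1, a log2 ratio of 0.25 (0.22 to 0.28; exact binomial test, adjusted p = 9.7e-54). Mir298 was 1.05-fold higher in animal 1, a log2 ratio of 0.06 (0.04 to 0.09; exact binomial test, adjusted p = 1.8e-09), which with DESeq2 size factors was 0.01 and did not pass (exact binomial test, adjusted p = 0.27). Mir335 went the other way and was 1.31-fold higher in animal 2, a log2 ratio of -0.39 (-0.43 to -0.35; exact binomial test, adjusted p = 3.1e-77).

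These differences lay within the spread of the other genes. The median absolute log2 ratio was 0.32 over the 4 tested members and 0.51 over all 531 genes, and the median ratio was 0.16 and 0.04 for the same sets. Of all 531 genes, 265 had a larger absolute ratio than Mir483, 311 than Mir335, 387 than Mir296 and 488 than Mir298. Against the 50 genes nearest in mean level, the absolute ratio was larger than that of 27 genes for Mir483, 23 for Mir335, 20 for Mir296 and 7 for Mir298. None of the 4 differed 2-fold, while 90 of the 531 genes passed the test with at least a 2-fold difference. Scaling by library totals alone moved the median of all genes to 0.25 and the 4 ratios to 0.72, 0.45, 0.27 and -0.18 for Mir483, Mir296, Mir298 and Mir335, with the share of calls higher in animal 1 at 67.5% against 52.2% after TMM. With DESeq2 size factors that share was 46.7%, 128 genes higher in animal 1 and 146 in animal 2, and the median of all genes was -0.0061.

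**Figure D4:**
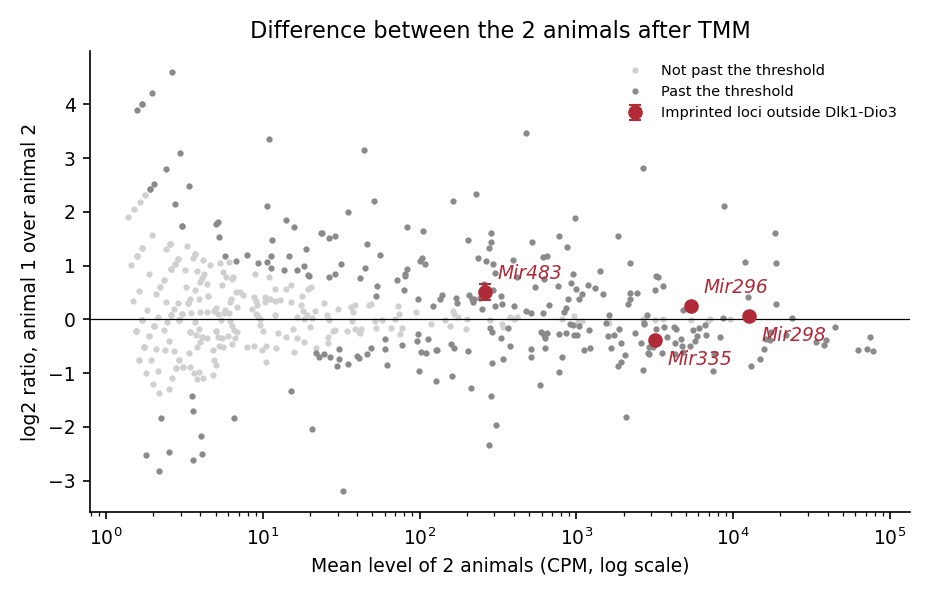
Log2 ratio of animal 1 over animal 2 after TMM scaling against mean level in CPM (log axis) for 531 genes, dark grey where the exact binomial test passed and light grey where it did not. The 4 tested imprinted-locus genes, in red with 95% intervals, lie between -0.39 for Mir335 and 0.51 for Mir483, inside the cloud of other genes.

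Several marker genes of other cell types also differed between the libraries, and their part in these ratios was not tested. The marker levels are CPM by library totals, whereas the ratios above were taken after TMM scaling. The endothelial gene Mir126a had 28913 CPM in animal 1 and 8265 CPM in animal 2. The 4 mesenchymal genes summed to 278 CPM in animal 1 and 53.8 CPM in animal 2, nearly all of it Mir214, with Mir199a-1 at 0 in both. Erythroid genes summed to 49.1 and 17.7 CPM in animals 1 and 2, while smooth muscle and pericyte genes summed to 3146 and 4524 CPM. Oligodendrocyte genes summed to 1167 and 1639 CPM, of which Mir219a-2 had 566 and 974 CPM and Mir338 601 and 665 CPM. Microglial and blood genes summed to 837 and 1151 CPM, most of it Mir150, with 672 and 955 CPM. In that list only Mir155, with 53.3 and 51.9 CPM, was lower in animal 2. The choroid plexus gene Mir204 had 865 CPM in animal 1 and 751 CPM in animal 2 and Mir122 of liver 42.6 and 41.9 CPM. After TMM scaling the log2 ratio of Mir204 was 0.0001. The neuronal list summed to 37883 CPM in animal 1 and 39096 CPM in animal 2, with 5 of its 8 genes detected. The 3 Mir124a copies were below 10 CPM, and reads that map to several positions were not counted to genes. After TMM scaling, 3 of its 6 tested genes passed as higher in animal 2 and 1 as higher in animal 1. Of 5 striated muscle genes, 4 were at 0 and Mir206 had 20.8 and 28.0 CPM in animals 1 and 2. Those 4 are the numbered copies of Mir1a and Mir133a, and Mir199a-1 is likewise a numbered copy. Reads that map to several copies were not counted, so a 0 in these genes does not show absence.

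By level in both animals, the genes nearest to each member were found by the distance of log2 CPM over the 2 libraries. Nearest to Mir298 was Mir30d (distance 0.26), with 14997 CPM in animal 1 and 9813 CPM in animal 2, followed by Mir324 (0.58). Nearest to Mir296 were Mir100 (0.18; 5716 CPM in animal 1 and 4999 in animal 2) and Mir409 of the Dlk1-Dio3 region (0.24). Nearest to Mir335 were Mir98 (0.08; 2889 CPM in animal 1 and 3235 in animal 2), a let-7 family gene on the X chromosome, and Mir376a of the Dlk1-Dio3 region (0.11). Like Mir335, both were higher in animal 2 by the test. Nearest to Mir483 were Mir129-1 (0.11; 332 CPM in animal 1 and 183 in animal 2) and Mir29c (0.15), both higher in animal 1. Nearest to Mir675 among genes with at least 10 reads were Mir7028 and Mir3062 (0.71), each with 5 reads in each animal. Beside Mir298 and Mir296, Mir30d and Mir409 were higher in animal 1 by the test, while Mir324 and Mir100 did not pass. Because the choice used the same levels of the 2 animals, a direction shared with a member was largely set by it. With 2 libraries such nearness says only that the levels were alike.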

How the data were processed

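MicroRNA sequencing of 2 libraries, 1 per animal, was analysed. The deposited values are whole-number counts of reads per microRNA gene, made by the authors on build mm10 with GENCODE annotation M21, per the notes deposited beside the tables. The sources used here name no aligner or counter. Per the labels, total RNA was size-selected for short RNA. The own-strand column was used; the unstranded column was an alternative. The 4 rows that name no gene held 66.5% of reads in animal 1 and 69.6% in animal 2 (42.7% and 40.4% mapped to several positions) and were left out. Gene IDs were matched to M21 symbols (2202 of 2202) and members to RefSeq hairpins (5 of 5).

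CPM, exact intervals and binomial tests were computed with Python 3.11.15, scipy 1.17.1 and pandas 2.3.3, TMM factors (1.07 and 0.932 for animals 1 and 2) with edgeR 4.0.16 and size factors with DESeq2 1.42.0 in R 4.3.3, and folding with RNAfold 2.7.2. The test was checked on simulated counts that held counting error only, as the test itself assumes. That check does not cover further variation between the libraries. Members and lists were chosen with earlier results of these data known. Named genes are the members, the 2 nearest to each in level, microRNA genes within 500 kb, detected same-seed genes (there were none), and the 3 highest of each other imprinted list; cell type marker genes are named from their own list.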

Additional observations from a re-analysis of the deposited data

How the results depend on the processing

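Across 86 alternative settings of 19 results, 77 kept their call or moved by less than the spread between the animals (counts, by at most 1.5 times), and none changed direction. Some of the 77 were fixed in advance. With 2 animals, leaving 1 out always moves a mean level or share by less than the SD. Adding 5 to each count leaves the binomial p-value as it is, so those calls could not change. The 77 is therefore no measure of robustness. With all reads as the denominator the levels of Mir296, Mir298, Mir335, Mir483 and Mir675 were 1746, 4068, 1013, 84.1 and 0.366 CPM and the share of the 5 genes 0.691%, since unmapped reads, reads mapped to several positions and reads outside genes were added to the denominator. At 1 CPM 517 genes and at 100 CPM 198 genes were detected, and 4 members at each threshold. With DESeq2 size factors the log2 ratio of Mir298 was 0.014 and no longer passed. Left out in turn, single animals gave their own values, and 4 members stayed detected. Without a filter on low counts, Mir675 had a log2 ratio of -1.11 (95% interval -3.94 to 1.40; exact binomial test, adjusted p = 0.64 over 770 genes), so depth limits it. No paired analysis was possible because there is a single group.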
